A study of Mus musculus with 6 samples.

Results

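Poly(A) RNA of mouse bone-marrow mesenchymal stem cells (MSCs) was examined for the 10 genes that write, remove or read methyl marks on adenosines of mRNA, which are Pcif1, Mettl3, Mettl14, Wtap, Fto, Alkbh5, Ythdf1, Ythdf2, Ythdf3 and Ythdc1. The genes were taken by symbol, without regard to their levels, from the 20071 Ensembl IDs of the count table, and all 10 were among the 13733 genes that passed the filter on low counts. The MSCs came from the femurs of 6-week-old C57BL/6J mice that carried loxP sites on both alleles of Pcif1, either without Cre (Pcif1fl/fl, labelled WT) or with the Prrx1-Cre transgene (Prrx1-Cre;Pcif1fl/fl, labelled CKO), and each genotype had 3 libraries. All cultures of both genotypes had been kept for 7 days in osteogenic medium with ascorbic acid at 50 µg/mL, β-glycerophosphate at 5 mM and dexamethasone at 100 nM. Prrx1-Cre acts in the mesenchyme of the limb buds, so that cells of other lineages in a culture are not expected to lose the floxed exons. The series has no other genotype, no uninduced culture and no measurement of the methyl marks themselves.

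Pcif1 encodes the methyltransferase that adds a methyl group to adenosine when that base is the first one after the mRNA cap, which gives the mark m6Am. Internal adenosines carry the related mark m6A, which is written by a complex built on the METTL3 catalytic subunit, its partner METTL14 and the adaptor WTAP. FTO removes methyl groups from both marks, ALKBH5 removes them from m6A, and the YTH proteins bind m6A, YTHDF1, YTHDF2 and YTHDF3 in the cytoplasm and YTHDC1 in the nucleus. In cells of the osteoblast lineage, members of this machinery have been studied as regulators of the choice between bone and fat.

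Read counts per gene were compared as CPM, the count of a gene relative to the size of its library after scaling by edgeR's TMM factors, and each gene was tested with edgeR's quasi-likelihood test, whose p-values were adjusted by the Benjamini-Hochberg method over all 13733 genes. A gene is said to be called when the adjusted p was under 0.05. The libraries held 20258209 to 28227696 counts, and the 10 genes together took 0.0675% to 0.0723% of them, with 329 to 3985 counts for a single gene in a library. WT replicate 3 stood apart from the other libraries, with 3.63% of its counts on mitochondrial genes against 1.4% to 1.57% elsewhere, and many values are also given without it. Xist was at 232 to 443 CPM in the WT libraries and at 0.722 to 1.79 CPM in the CKO libraries, so that genotype and whatever sets the Xist level cannot be told apart, and 0 of the 10 genes lie on chromosome X or Y. Mesenchymal genes were present in every library, where the summed level of 10 markers was 7740 to 10168 CPM in WT and 13246 to 14069 CPM in CKO. Most of that sum came from Col1a1 (3485 to 4491 CPM in WT, 5827 to 6359 CPM in CKO) and Col1a2 (3226 to 4707 CPM in WT, 6204 to 6500 CPM in CKO). Of the 10 markers, 5 were called higher and 2 lower (Pdgfra and Eng) in CKO, against 7.40% of all genes tested that were called in either direction. Prrx1 itself was not called (adjusted p = 0.303 from edgeR). Macrophage genes were also abundant, at summed levels of 27983 to 30210 CPM in WT and 27640 to 31081 CPM in CKO for 10 markers, of which 1 was called higher. Lyz2 alone gave 21980 to 26233 CPM over the 6 libraries. Summed levels of adipocyte genes were 151 to 158 CPM in WT and 96.8 to 117 CPM in CKO, with 4 of 5 tested genes called lower. Adipoq was at 42.9 to 53.8 CPM in WT and 0.289 to 1.49 CPM in CKO, whereas Fabp4, which made up most of the sum in CKO, was at 66.3 to 78.8 CPM in WT and 85.3 to 107.3 CPM in CKO (adjusted p = 0.0545). The part that any of these differences had in the values of the 10 genes was not tested, and in bulk RNA fewer cells of a type and less RNA per cell cannot be told apart.

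The floxed stretch of Pcif1 (ENSMUSG00000039849, chromosome 2, 164879304 to 164894454, plus strand, GRCm38) holds exons 5 to 7 of the 17 exons of its annotated coding transcript. All 3 exons lie wholly within the coding sequence, and the sequences of exons 6 and 7 are shown as part of what Cre removes.
Exon 6 (chromosome 2, 164885676 to 164885803, codons 130 to 172): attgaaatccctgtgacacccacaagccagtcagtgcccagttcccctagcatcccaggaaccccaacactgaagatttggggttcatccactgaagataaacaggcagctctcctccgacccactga
Exon 7 (chromosome 2, 164885908 to 164886062, codons 172 to 224): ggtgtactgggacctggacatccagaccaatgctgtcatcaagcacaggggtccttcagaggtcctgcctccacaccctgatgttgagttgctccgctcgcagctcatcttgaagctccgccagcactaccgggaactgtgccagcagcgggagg
Exons 5 to 7 have 138, 128 and 155 bases, or 421 of the 5772 bases of the transcript (7.29%) and 19.9% of its coding sequence. Their summed length leaves a remainder of 1 when divided by 3, so a transcript in which exon 4 is joined to exon 8 changes its reading frame. In the annotation that joined transcript keeps the first 83 of 706 codons and reads 43 further codons before a stop. The 30 bases around the join are given next, with exon 4 in lower case and exon 8 in capitals.
Exon 4 to exon 8: cagcacgacgtgcttGCATTGAGCCGCCCC
Exon 17 alone makes up 62% of the transcript, and it lies outside the floxed stretch. Counts per gene pool the reads of all 17 exons, so they do not show whether reads from exons 5 to 7 were lost.

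**Figure D1:**
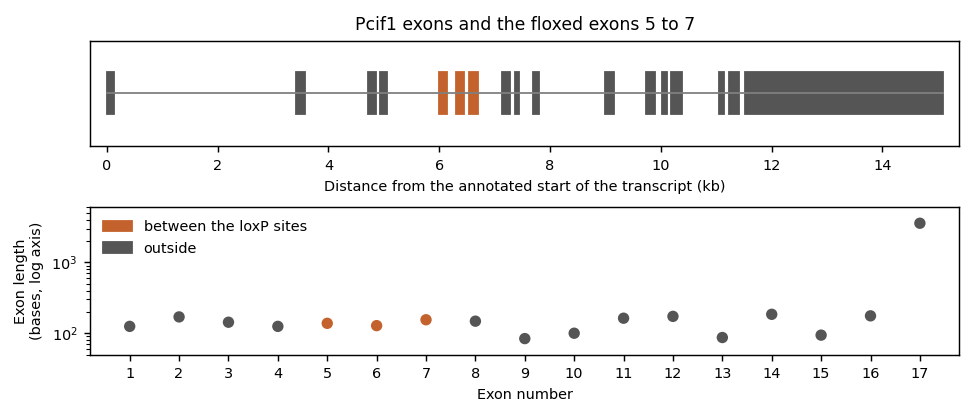
Exons of the annotated coding transcript of Pcif1. The upper panel places the 17 exons by distance from the transcript start in kb, and each point of the lower panel gives the length of 1 exon in bases on a log axis, with the floxed exons 5 to 7 in orange (138, 128 and 155 bases) and exon 17, which makes up 62% of the transcript, at the right.

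The count of Pcif1 as a whole gene overlapped between the genotypes and was not called different. Its level was 42.8, 41.7 and 39.3 CPM in WT replicates 1 to 3 and 39.2, 37.8 and 39.7 CPM in CKO replicates 1 to 3. CKO replicate 3 was above WT replicate 3, and without WT replicate 3 all CKO libraries were below both other WT libraries. The means were 41.3 ± 1.79 CPM (SD, n = 3) in WT and 38.9 ± 1.01 CPM (SD, n = 3) in CKO, and edgeR gave a log2 fold change of -0.085 (CKO minus WT, SE 0.092, 95% interval -0.30 to 0.13, adjusted p = 0.645). That interval spans 0.815 to 1.09 times the WT level. It holds 0, and it also holds -0.11. That is the log2 change that loss of reads from exons 5 to 7 alone would give, by their share of the transcript, if every Pcif1 transcript lost them. Transcripts from cells that keep the exons would bring that change nearer to 0, and their share was not measured. At the SE of this gene an absolute log2 difference of 0.37 would have been needed for a call. The log2 fold change was -0.12 without WT replicate 3 (adjusted p = 0.309), -0.056 without WT replicate 1 (adjusted p = 0.765) and -0.020 with a correction for GC content and gene length (adjusted p = 0.898).

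Part of the Pcif1 locus is shared with another gene. Of its annotated exonic bases, 16.9% overlap Zfp335, a zinc-finger gene on the opposite strand, and the use of strand in counting is not given in the sources used here. Zfp335 was at 34.7 CPM in WT and 29.6 CPM in CKO on average, and its log2 fold change was -0.23 (adjusted p = 0.474 from edgeR). Reads from the shared stretch cannot be assigned to 1 of these genes from the table. The genes whose levels over the 6 libraries were most like those of Pcif1, by the root mean square difference of log2 CPM centred on each gene's mean, were Frg1 (0.0133), Hspa14 (0.0212) and Mta2 (0.0215).

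Across the 10 genes, 0 were called by edgeR, against 7.40% of all genes tested that were called in either direction and 4.51% that were called lower. DESeq2 and limma-voom also called 0 of the 10, and 1 of them, Fto, had an unadjusted p under 0.05 in edgeR, against 21.4% of all genes tested. Of the 10, 0 were called with a log2 fold change of 1 or more in either direction, against 3.53% of all genes tested. The log2 fold change was below 0 for 6 genes and above 0 for 4, with a median of -0.033 against 0.0017 over all genes tested. Without WT replicate 3 it was below 0 for 4 genes and above 0 for 6, with a median of 0.025 against 0.0011, so the direction of that summary rests on 1 library. All 10 of the 95% intervals lay between -1 and 1, and 9 lay between -0.5 and 0.5, the exception being Ythdc1. In 1 of the 10 genes, Fto, all CKO libraries lay on one side of all WT libraries, against 30.8% of the genes tested in either direction and 15.7% with CKO below WT. The number was 4 of 10 without WT replicate 3 (Pcif1 and Fto lower, Mettl14 and Ythdf2 higher in CKO), against 48.7% of the genes tested.

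**Figure D2:**
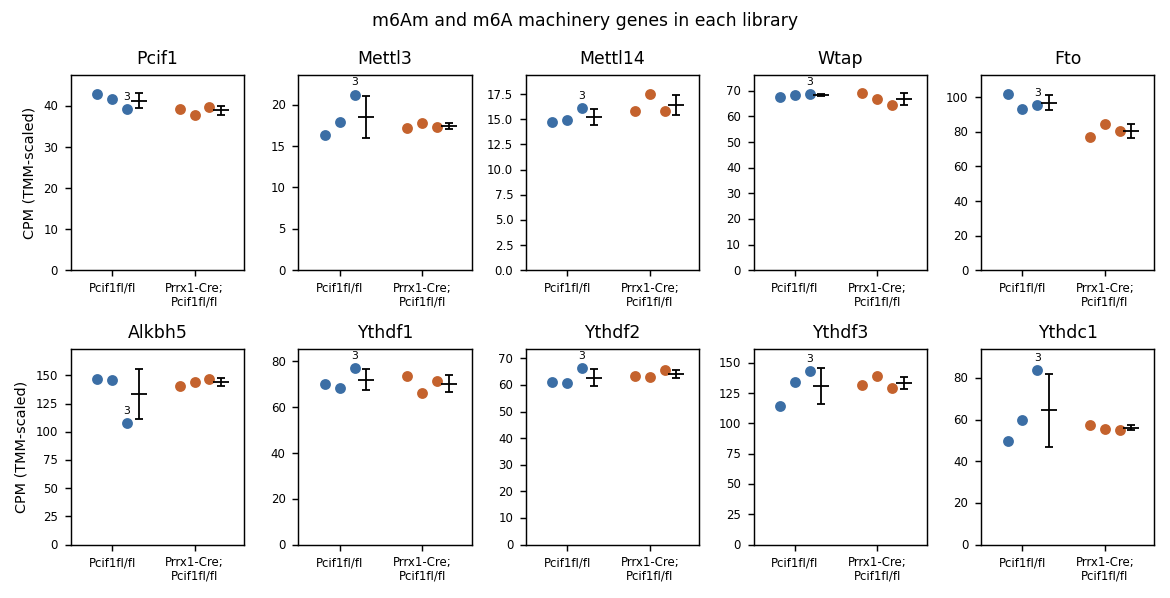
Level of each of the 10 genes in every library, in CPM scaled by TMM factors, with WT (Pcif1fl/fl) in blue and CKO (Prrx1-Cre;Pcif1fl/fl) in orange. Each point is 1 library in replicate order, 3 marks WT replicate 3, and the black marks are the mean and SD of 3 libraries. Only Fto has all CKO points on one side of all WT points when WT replicate 3 is counted, and WT replicate 3 is farthest from its group in Ythdc1 and Alkbh5.

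Among the writers of m6A, the levels in CKO lay within or close to the range of WT. Mettl3 (ENSMUSG00000022160, chromosome 14, 52294841 to 52305128, minus strand), the catalytic subunit, was at 16.3, 17.9 and 21.2 CPM in the WT libraries and at 17.2, 17.8 and 17.3 CPM in the CKO libraries. The CKO libraries all sat inside the WT range, and the log2 fold change was -0.086 (SE 0.13, 95% interval -0.38 to 0.21, adjusted p = 0.747). Exons of Mettl3 overlap those of Tox4, a gene on the opposite strand, over 18.4% of their bases, and Tox4 was at 81.0 CPM in WT and 80.8 CPM in CKO on average (log2 fold change -0.0037, adjusted p = 0.988). Mettl14 (ENSMUSG00000028114, chromosome 3, 123368297 to 123386108, minus strand), the partner that helps METTL3 hold RNA, was at 14.7, 14.9 and 16.1 CPM in WT and at 15.8, 17.5 and 15.8 CPM in CKO. WT replicate 3 was above CKO replicates 1 and 3, the other WT libraries were below all CKO libraries, and the log2 fold change was 0.10 (SE 0.12, 95% interval -0.16 to 0.37, adjusted p = 0.652). Wtap (ENSMUSG00000060475, chromosome 17, 12966796 to 12994169, minus strand), which brings the catalytic pair to nuclear speckles, was at 67.8, 68.5 and 68.7 CPM in WT and at 69.2, 66.7 and 64.4 CPM in CKO. Its highest value and its lowest 2 values were all in CKO, and the log2 fold change was -0.034 (SE 0.084, 95% interval -0.23 to 0.16, adjusted p = 0.856).

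The ratio of Mettl3 to Mettl14 was taken within each library, from counts per exonic length, so that it does not depend on the scaling between libraries. It was 1.623, 1.761 and 1.923 in the WT libraries and 1.591, 1.486 and 1.595 in the CKO libraries. All CKO values were below all WT values, with a log2 difference of -0.18, but 3 libraries against 3 allow no exact two-sided permutation p below 0.1, which was the p found here, and it was 0.5 after adjustment over 10 ratios. Without WT replicate 3 the log2 difference was -0.12. The ratio of Pcif1 to Mettl3, which sets the cap-adjacent writer against the internal one, was 2.04, 1.80 and 1.44 in WT and 1.77, 1.65 and 1.79 in CKO, with a log2 difference of -0.0083 (exact permutation p = 0.9). Its overlap rests on WT replicate 3, the lowest of the 6 libraries, without which all CKO ratios were below both WT ratios (log2 difference -0.15, exact permutation p = 0.1, the smallest that design allows). The level of such a ratio depends on the gene length used, while the difference between genotypes does not, and with the longest coding transcript as the length the ratio of Mettl3 to Mettl14 ran from 3.95 to 4.68 in WT and from 3.62 to 3.88 in CKO.

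With all 6 libraries, an eraser was the one gene of the 10 whose genotypes did not overlap. Fto (ENSMUSG00000055932, chromosome 8, 91313525 to 91668439, plus strand), the demethylase that acts on m6Am and m6A, was at 101.6, 93.4 and 95.7 CPM in WT replicates 1 to 3 and at 76.9, 84.8 and 80.3 CPM in CKO replicates 1 to 3. Every CKO library was below every WT library, with means of 96.9 ± 4.27 CPM (SD, n = 3) in WT and 80.7 ± 3.96 CPM (SD, n = 3) in CKO, or 0.833 of the WT level. The log2 fold change of -0.26 (SE 0.087, 95% interval -0.46 to -0.064) had an unadjusted p of 0.0156 and an adjusted p of 0.119 from edgeR, which placed it 1796th among all genes ordered by p. It was therefore not called with all 6 libraries. Without WT replicate 3 the estimate was nearly the same, at -0.27 (SE 0.071, 95% interval -0.42 to -0.12), and the adjusted p was 0.0127, in a fit that called 21.5% of 13905 genes. With a correction for GC content and gene length it was -0.16 (adjusted p = 0.351). Annotated exons of Fto overlap the antisense genes Gm45427 and 4831440D22Rik over 2.33% and 1.11% of their bases, and these genes were not analysed here. The genes whose levels over the 6 libraries were most like those of Fto were Gdpgp1 (root mean square difference 0.0234), Tbc1d2b (0.0349) and Bcas3 (0.0369). None of these 3 was called by edgeR (adjusted p of 0.301, 0.0768 and 0.122), but they were picked for their likeness to Fto, so this adds nothing to its result.

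Alkbh5 (ENSMUSG00000042650, chromosome 11, 60536381 to 60558512, plus strand), the other demethylase of m6A, was at 146.4, 145.6 and 107.6 CPM in WT and at 140.4, 144.0 and 147.2 CPM in CKO. WT replicate 3 was the lowest of the 6 libraries, by 0.44 on the log2 scale under the mean of the other WT libraries, and the remaining 5 lay between 140.4 and 147.2 CPM. The log2 fold change was 0.11 (SE 0.13, 95% interval -0.18 to 0.40, adjusted p = 0.661), and without WT replicate 3 it was -0.018. The ratio of Fto to Alkbh5 per exonic length was 0.319, 0.295 and 0.409 in WT and 0.252, 0.271 and 0.251 in CKO. All CKO ratios were below all WT ratios (log2 difference -0.39, exact permutation p = 0.1, the smallest this design allows, adjusted p = 0.5), and without WT replicate 3 the log2 difference was -0.25. The ratio of Pcif1 to Fto, writer to eraser of the cap-adjacent mark, was 0.839, 0.889 and 0.818 in WT and 1.01, 0.887 and 0.986 in CKO, and the groups overlapped (log2 difference 0.18, exact permutation p = 0.2, adjusted p = 0.667). With the longest coding transcripts as lengths, Fto to Alkbh5 ran from 0.781 to 1.08 in WT and 0.664 to 0.717 in CKO, and Pcif1 to Fto from 0.335 to 0.364 and 0.363 to 0.415.

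With all 6 libraries the groups overlapped for each of the 3 cytoplasmic readers, and the interval of the log2 fold change lay between -0.25 and 0.26. Ythdf1 (ENSMUSG00000038848, chromosome 2, 180904377 to 180920949, minus strand) was at 70.4, 68.4 and 77.2 CPM in WT and at 73.6, 66.2 and 71.3 CPM in CKO. Its log2 fold change was -0.033 (SE 0.094, 95% interval -0.25 to 0.18, adjusted p = 0.874). Ythdf2 (ENSMUSG00000040025, chromosome 4, 132184912 to 132212303, minus strand), the reader best known for sending m6A mRNA to deadenylation, was at 61.0, 60.7 and 66.6 CPM in WT and at 63.2, 63.1 and 65.8 CPM in CKO. The CKO libraries lay below WT replicate 3 and above the other WT libraries, and the log2 fold change was 0.029 (SE 0.088, 95% interval -0.17 to 0.23, adjusted p = 0.88). Ythdf3 (ENSMUSG00000047213, chromosome 3, 16183212 to 16217037, plus strand) was at 114.3, 134.4 and 142.9 CPM in WT and at 131.3, 138.7 and 129.2 CPM in CKO. WT held both its lowest and its highest library, and the log2 fold change was 0.027 (SE 0.10, 95% interval -0.21 to 0.26, adjusted p = 0.907).

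The proportions of the 3 cytoplasmic readers overlapped between genotypes as well. Of their summed level per exonic length, Ythdf3 gave 40.7% ± 2.25 (SD, n = 3) in WT and 41.3% ± 1.77 (SD, n = 3) in CKO, Ythdf1 gave 36.4% ± 1.52 and 35.3% ± 1.66, and Ythdf2 gave 23.0% ± 0.763 and 23.3% ± 0.599. The log2 differences of their pairwise ratios were 0.063 for Ythdf2 to Ythdf1 (exact permutation p = 0.4, and 0.030 to 0.11 with 1 library left out), 0.066 for Ythdf3 to Ythdf1 (exact permutation p = 0.6) and -0.0027 for Ythdf2 to Ythdf3 (exact permutation p = 1).

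Ythdc1 (ENSMUSG00000035851, chromosome 5, 86804221 to 86836659, plus strand), the nuclear reader, varied most within a genotype. It was at 49.8, 59.7 and 83.6 CPM in WT and at 57.4, 55.7 and 55.0 CPM in CKO. WT replicate 3 was 0.62 above the mean of the other WT libraries on the log2 scale, and the CKO libraries lay within the WT range. The coefficient of variation was 26.9% in WT and 2.26% in CKO, where counting error alone gives 2.5% and 2.92%. The log2 fold change was -0.20 (SE 0.17, 95% interval -0.60 to 0.20, adjusted p = 0.559) with all libraries and 0.033 without WT replicate 3, so its sign rests on that library. The lincRNA gene Gm43055, on the same strand, overlaps 4.62% of its exonic bases and was not analysed here.

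The WT libraries varied more than the CKO libraries for 7 of the 10 genes, by the coefficient of variation. The coefficient of variation in WT was 0.694% for Wtap, 4.34% for Pcif1, 4.41% for Fto, 11.2% for Ythdf3, 13.6% for Mettl3, 16.6% for Alkbh5 and 26.9% for Ythdc1, against a median of 15.1% over all genes tested. In CKO it ran from 1.95% for Mettl3 to 6.02% for Mettl14, against a median of 6.67% over all genes tested. WT replicate 1 was the highest or lowest of the 6 libraries for 6 of the 10 genes, against 40.4% of all genes tested. WT replicate 3 was so for 6 of the 10 genes as well, and it was so for 64.2% of all genes tested. Its higher mitochondrial share moved with these values, and the part of that share in them was not tested. Without it, the sign of the log2 fold change turned for Mettl3 (0.027), Alkbh5 (-0.018), Ythdf1 (0.024) and Ythdc1 (0.033), and it held for Pcif1, Mettl14 (0.15), Wtap (-0.027), Fto, Ythdf2 (0.077) and Ythdf3 (0.099).

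**Figure D3:**
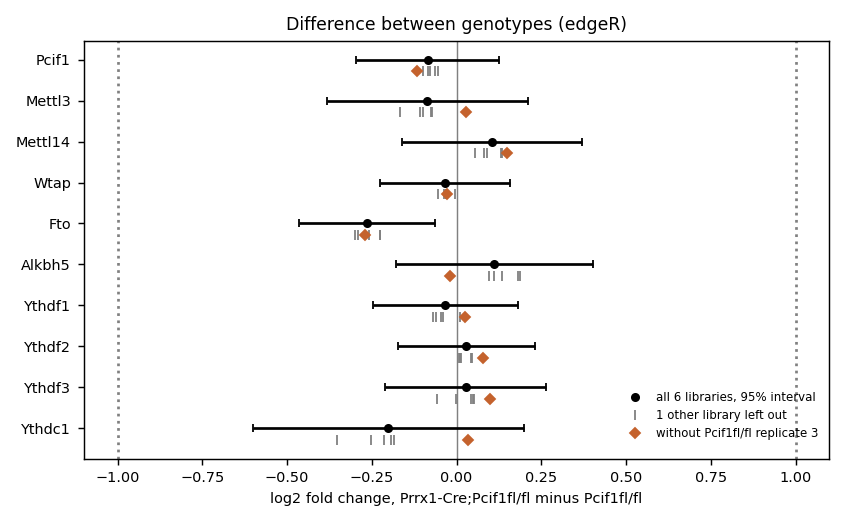
Log2 fold change of each of the 10 genes, CKO minus WT, from edgeR. Black points and bars give the estimate and its 95% interval with all 6 libraries, grey ticks the estimates with 1 other library left out, orange diamonds the estimates without WT replicate 3, and dotted lines mark -1 and 1. All bars lie between the dotted lines, only the bar of Fto (-0.46 to -0.064) does not reach 0, and the diamonds of Mettl3, Alkbh5, Ythdf1 and Ythdc1 lie across 0 from their points.

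Levels were compared between genes only per kilobase of annotated exonic length. In WT the order was Ythdf3 at 24.3 ± 2.74 CPM per kilobase (SD, n = 3), Alkbh5 at 22.3 ± 3.70, Ythdf1 at 21.7 ± 1.397, Ythdf2 at 13.7 ± 0.721, Wtap at 10.9 ± 0.0759, Fto at 7.44 ± 0.328, Pcif1 at 6.31 ± 0.274, Ythdc1 at 4.72 ± 1.27, Mettl3 at 3.64 ± 0.495 and Mettl14 at 2.05 ± 0.106. The order was the same in CKO, where the levels per kilobase ran from 24.8 ± 0.936 for Ythdf3 to 2.21 ± 0.133 for Mettl14. Pcif1 stood in the middle, at the 54.5th percentile of all genes tested, and Ythdf3 stood at the 86.4th and Mettl14 at the 30.4th. Ythdf1, Ythdf2, Wtap and Fto followed each other without overlap over the 6 libraries, as did Mettl3 and Mettl14. The neighbours Ythdf3 and Alkbh5, Alkbh5 and Ythdf1, Fto and Pcif1, Pcif1 and Ythdc1, and Ythdc1 and Mettl3 overlapped. Within WT alone Fto lay above Pcif1 in every library.

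The order depends on the length that is used. When the length of the longest coding transcript took the place of all annotated exons, a choice made after seeing the data, Wtap came to 21.4, Fto to 20.6 and Ythdc1 to 19.7 CPM per kilobase in WT, which placed them 4th, 5th and 6th. Ythdf2 came 7th at 15.2, Mettl3 8th at 9.13, Pcif1 9th at 7.15 and Mettl14 10th at 2.12, and the first 3 places were as before. The exons of Fto cover 13031 bases over 7 annotated transcripts and those of Ythdc1 13651 bases over 9, whereas their longest coding transcripts have 4707 and 3269 bases.

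**Figure D4:**
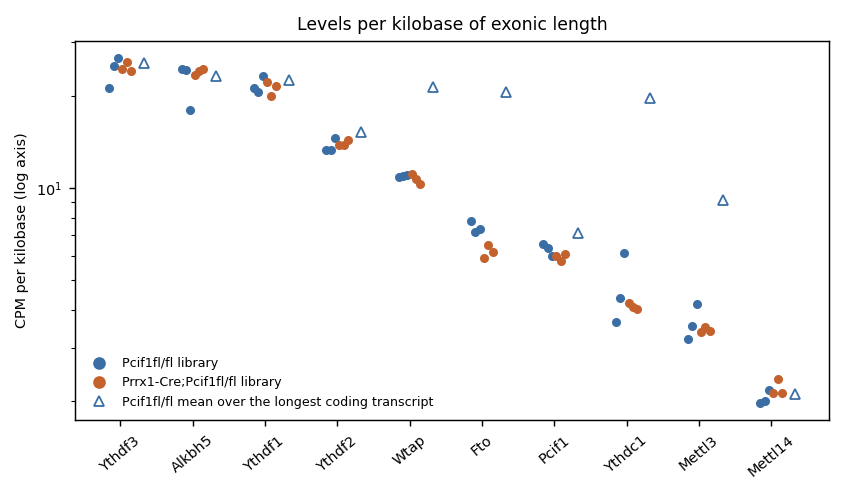
Levels of the 10 genes in CPM per kilobase on a log axis, in the order of their WT means. Circles are single libraries over annotated exonic length (WT blue, CKO orange), and open triangles are WT means over the longest coding transcript. Circles fall from 24.3 for Ythdf3 to 2.05 for Mettl14 in WT, and the triangles of Wtap, Fto, Ythdc1 and Mettl3 stand well above their circles.

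Since the mark that Pcif1 writes depends on the first base of a transcript, annotated starts were read from a set of RefSeq promoter entries (GRCm38.p6). That set held entries for 8 of the 10 genes. Each of the sequences that follow has 15 bases before the start, the first transcribed base as the only capital, and the next 14 bases, and they are shown for which base would follow the cap.
Pcif1, start at 164879368: cgacgcatgcgcagcGcggagtcccggccc
Pcif1, start at 164880052: ttccgctgcttgcgcAgatacagttgtttg
Mettl3, start at 52305124: gctggttcgccaaccGgaagtggcttttca
Wtap, start at 12992259: ctcggggcggggcgcAgtccgggcggggcg
Fto, start at 91313525: caggaggcggggtccAgggcgagggggaac
Alkbh5, start at 60537683: gtcacggggcggactGggttgtggcgattc
Ythdf1, start at 180920936: acgtcgcgtagcttcGtcccagccgccgcg
Ythdf2, start at 132212256: ccgggcccttccgcgTgggtcagcgactgt
Ythdc1, start at 86804266: gcaggctccattttaGcgccgcccggcgtc
Wtap had 2 further annotated starts, both with C, and Mettl14 and Ythdf3 had no entry in that set. An A was the first base at 3 of the 11 annotated starts, 1 each of Pcif1, Wtap and Fto, against 34.4% of all 32851 entries. Annotated starts are not measured starts in these MSCs, and a start with A does not show that the transcript carries m6Am.

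The genes that act with this machinery were described through 10 lists written by hand, with 98 genes in all, the 10 genes included where they belong, and each of the 98 was tested. Of these, edgeR called 1 gene lower in CKO and 0 higher, against the 7.40% called over all genes tested, and limma-voom did the same. DESeq2 called 2 lower and 0 higher. At an unadjusted p under 0.05 in edgeR, 5 genes were lower (Ahcyl1, Igf2bp1, Polr2a, Cnot3 and Fto) and 3 were higher (Adk, Rnmt and Alkbh1), and apart from Fto and Ahcyl1 these genes are named because their values had been seen. At that unadjusted p the share over all genes tested was 21.4%. The median log2 fold change of the 98 genes was -0.011, against 0.0017 over all genes tested, and it was 0.029 without WT replicate 3, so each list median that follows is given with and then without that library. In 11 of them all CKO libraries lay below all WT libraries and in 8 they all lay above, against 30.8% of genes tested in either direction and 15.7% with CKO below.

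The gene called was Ahcyl1, a relative of the hydrolase that clears S-adenosylhomocysteine, the product left when S-adenosylmethionine has given away its methyl group. Ahcyl1 was at 422.9, 413.9 and 377.5 CPM in the WT libraries and at 300.1, 289.1 and 292.7 CPM in the CKO libraries. Every CKO library was below every WT library, and the log2 fold change was -0.46 (SE 0.086, adjusted p = 0.0144). The call was lost with the replicate block (adjusted p = 0.0501), and without WT replicate 2 (adjusted p = 0.0606) or CKO replicate 1, 2 or 3 (adjusted p = 0.0928, 0.0827 and 0.102), while the log2 fold change stayed between -0.51 and -0.42 in all alternatives. Among the 8 genes of the S-adenosylmethionine cycle, which supplies the methyl groups, 1 was called and the median log2 fold change was 0.029 and -0.11. Ahcy, the hydrolase itself, was not called (log2 fold change -0.0078, adjusted p = 0.984 from edgeR, and -0.13 without WT replicate 3). Adk, the kinase that clears the adenosine released by the hydrolase, had a log2 fold change of 0.28 (adjusted p = 0.108).

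In the m6A writer complex 0 of 8 genes were called, 0 had an unadjusted p under 0.05 in edgeR, and the median log2 fold change was -0.021 and 0.026. Besides Mettl3, Mettl14 and Wtap, the other 5 subunits are all given, with their values known beforehand. The log2 fold change was -0.0082 for Virma, the scaffold (adjusted p = 0.975), and -0.14 for Zc3h13, which holds the complex in the nucleus (adjusted p = 0.597). Rbm15 and Rbm15b, which guide the complex to RNA, were at 0.049 and 0.034 (adjusted p = 0.832 and 0.889), and Cbll1, a ubiquitin ligase-like subunit, was at -0.38 (adjusted p = 0.299). Without WT replicate 3, the value was -0.15 for Cbll1, and the sign turned for Zc3h13 (0.026), Virma (0.068) and Rbm15b (-0.043). The other adenosine methyltransferases gave 0 calls of 5 and medians of 0.077 and 0.13.

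In the YTH family 0 of 5 genes were called, with medians of -0.033 and 0.077, and Ythdc2, the member outside the 10 genes, was at -0.045 (adjusted p = 0.887) and, without WT replicate 3, at 0.096. Among the 9 AlkB family genes 0 were called, with medians of 0.094 and -0.020, and Alkbh1, a demethylase of tRNA, was at 14.6, 14.8 and 15.1 CPM in WT and at 18.7, 18.7 and 16.9 CPM in CKO (log2 fold change 0.29, adjusted p = 0.182). All of its CKO libraries were above all of its WT libraries, the opposite side from Fto. Among 9 other proposed readers 0 were called, with medians of -0.027 and 0.037. Igf2bp1, an mRNA-binding protein, was at 1.66, 1.62 and 1.83 CPM in WT and at 0.855, 0.996 and 0.770 CPM in CKO (log2 fold change -0.96, adjusted p = 0.0572), with at most 51 counts in a library.

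Genes that make and read the cap, next to which PCIF1 acts, gave 0 calls of 10 and medians of 0.070 and 0.10. Rnmt, which methylates the cap guanosine, was at 34.1, 38.6 and 31.9 CPM in WT and at 40.4, 42.4 and 44.1 CPM in CKO, without overlap (log2 fold change 0.28, adjusted p = 0.177). Decapping and decay from the cap end gave 0 calls of 18 and medians of -0.013 and -0.010. The deadenylases, which YTHDF proteins can bring to m6A mRNA, gave 0 calls of 14 and medians of -0.090 and -0.0085, and their subunit Cnot3 was at 47.4, 50.0 and 69.7 CPM in WT and at 42.3, 37.2 and 40.03 CPM in CKO (log2 fold change -0.48, adjusted p = 0.109). Without WT replicate 3, the highest library of Cnot3, that value was -0.29 (adjusted p = 0.0185), in the fit that called 21.5% of all genes.

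The kinases and phosphatases of the RNA polymerase II tail, a domain to which PCIF1 binds, gave 0 calls of 12 and medians of -0.028 and 0.050. In that list Polr2a, the large subunit that carries the tail, was at 305.6, 292.6 and 378.7 CPM in WT and at 249.5, 246.6 and 240.5 CPM in CKO. Every CKO library was below every WT library, and the log2 fold change of Polr2a was -0.41 (SE 0.11, adjusted p = 0.0674), past the threshold in DESeq2 (adjusted p = 0.033) and with total count scaling (adjusted p = 0.0451). Without WT replicate 3 it was -0.28 (adjusted p = 0.00324), in the same fit with 21.5% of genes called.

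**Figure D5:**
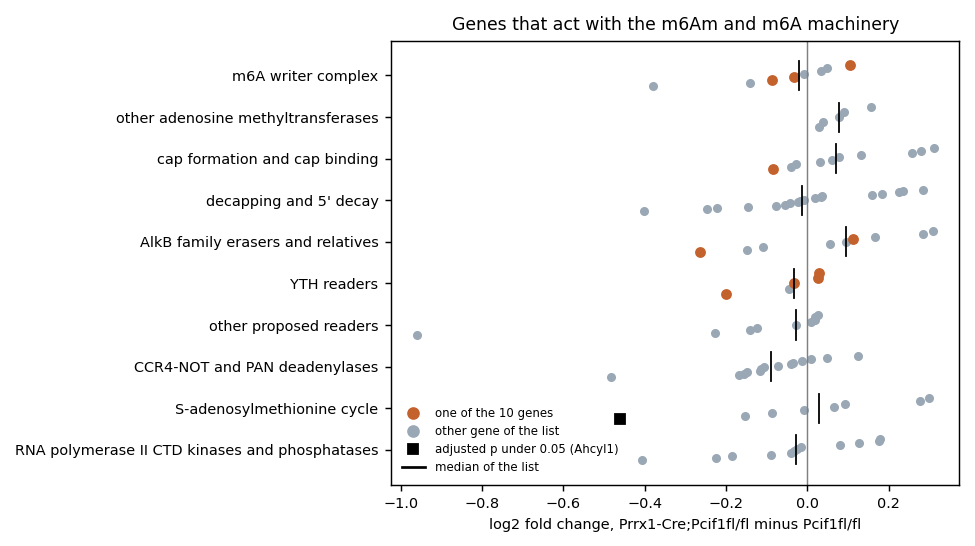
Log2 fold change, CKO minus WT, of the genes of the 10 lists that act with the m6Am and m6A machinery. Each point is 1 gene (orange for the 10 genes described first, grey for others, and a black square for Ahcyl1, the gene called), spread vertically within a list for visibility, and black lines are list medians with all 6 libraries, which lie between -0.090 and 0.094. The point farthest from 0 is Igf2bp1 at -0.96.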

How the data were processed

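The authors made poly(A) libraries of MSCs with the NEBNext Ultra kit, sequenced them as read pairs and used HISAT2 against the mm10 build, and what they deposited is the raw count of reads for each gene. Which program and annotation were used for counting, and whether strand was used, is not given in the sources used here. Genotypes and replicate numbers come from the sample labels, which give 3 libraries per genotype, while the design text speaks of duplicates. The labels do not say that libraries of 1 genotype came from separate mice, so p-values measure the spread between these samples, which may be technical. Of 20163 rows, 92 repeat an Ensembl ID, which left 20071 IDs, of which 20059 were found in GENCODE M21 on GRCm38.

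The quasi-likelihood test of edgeR 4.0.16, run under R 4.3.3 after TMM scaling and the filterByExpr filter, had genotype as its only term, and p-values were adjusted by the Benjamini-Hochberg method over 13733 genes. Standard errors are the log2 fold change over the square root of the F statistic, and 95% intervals use the t distribution of the fit. Ratios of genes within a library were compared by an exact two-sided permutation test. Alternatives were RLE and total count scaling, DESeq2 1.42.0, limma-voom (limma 3.58.1), no filter on low counts, a mean count of 10 as the filter, a replicate block, offsets from splines of GC content and exonic length with 5 degrees of freedom, both of these together, and each library left out in turn. The fits were also run on simulated counts. Those counts had less spread than the 10 genes have here and no library that stood apart, so they do not show how the fits behave with WT replicate 3. Depths of 20258209 to 28227696 counts leave a counting error of 1.71% to 5.39% for Alkbh5 and Mettl14, the ends of the range among the 10 genes, and larger ones for genes with few counts, and errors of counting do not cover PCR duplicates.

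The 10 genes, the 10 pathway lists and the 7 marker lists (mesenchymal, macrophage, neutrophil, endothelial, adipocyte, B cell and erythroid) were chosen with earlier results of these data known. Named genes are those 10, pathway genes called by edgeR, genes whose exons overlap them, the 3 genes most like Pcif1 and like Fto over the 6 libraries, and Xist. All others, such as the remaining subunits of the writer complex, Ythdc2, Lyz2, Ebf1, Adipoq and Fabp4, were named after their values were seen. The sequence of exon 5 of Pcif1 is not reported here.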

Additional observations from a re-analysis of the deposited data

How the results depend on the processing

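Fto was called lower only without WT replicate 3 (-0.27, adjusted p = 0.0127), so the number of the 10 genes called lower was 0 to 1 with a library left out and 0 under every other alternative, and its adjusted p ran from 0.0127 to 0.427 over 15 alternatives. Pcif1, Mettl14, Wtap, Fto and Ythdf2 kept their sign under all 15, with ranges with a library left out of -0.12 to -0.056, 0.055 to 0.15, -0.055 to -0.0057, -0.30 to -0.23 and 0.0069 to 0.077. With a library left out, log2 fold changes ran from -0.17 to 0.027 for Mettl3, -0.018 to 0.19 for Alkbh5, -0.068 to 0.024 for Ythdf1, -0.057 to 0.099 for Ythdf3 and -0.35 to 0.033 for Ythdc1. Log2 differences of ratios ran from -0.15 (without WT replicate 3) to 0.11 for Pcif1 to Mettl3, -0.059 to 0.12 for Wtap to Mettl3, -0.36 to 0.049 for Mettl3 to Alkbh5, -0.012 to 0.13 for Ythdf3 to Ythdf1 and -0.050 to 0.070 for Ythdf2 to Ythdf3. Ythdf1 was at 0.012 with the correction for GC content and length and at 0.015 with that correction and the replicate block. With the correction alone, Mettl3 was at -0.029, Mettl14 at 0.13, Wtap at -0.021 and Alkbh5 at 0.18. Ythdf2 was then at 0.078, Ythdf3 at 0.021 and Ythdc1 at -0.13. The correction also moved the split of calls over all genes, to 663 lower and 691 higher from 620 and 396. Pathway genes called lower numbered 2 with total count scaling and 2 with DESeq2 (Ahcyl1 and Polr2a), 0 with the replicate block, 0 with the block and the correction, and 0 to 5 with a library left out. Those called higher numbered 0 to 2, and without WT replicate 3 the calls were Ahcyl1, Fto, Cnot3, Polr2a and Dxo lower and Eif4e and Adk higher, in a fit that called 21.5% of all genes. The cause of these changes was not tested.

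Replicate numbers did not pair the libraries, since deviations of libraries with the same number correlated at 0.0708, -0.0506 and 0.012. With the replicate block Pcif1 was at -0.085 (adjusted p = 0.731) and Fto at -0.26 (adjusted p = 0.245), and calls over all genes were 503 lower and 267 higher. Differences under about 0.33 to 0.69 on the log2 scale, according to the gene, could not have been called at this spread.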

Other observations

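Genes grouped by the first base of their annotated transcript, the base on which m6Am depends, had median log2 fold changes between -0.0044 and 0.0097. Only genes with the same first base at all of their annotated starts were grouped, so Pcif1 and Wtap were left out, as were genes without an entry. Of 2601 such genes with a start at A, 7.8% were called by edgeR (117 lower and 86 higher in CKO), with a median of -0.0044, against 7.40% called over all genes tested. For C, 7.28% of 1346 genes were called (63 lower and 35 higher), with a median of 0.0048. For G it was 5.88% of 4402 genes (161 lower and 98 higher) and 0.0097, and for T 8.76% of 799 genes (40 lower and 30 higher) and 0.00069.

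Markers of 4 other cell types were summed in these MSC cultures. Summed levels of endothelial genes were 31.9 to 44.7 CPM in WT and 29.5 to 34.7 CPM in CKO, with 0 of 7 genes called by edgeR. Over all genes tested the share called was 7.40%, and lists of so few genes cannot be set against it. Of the 9 neutrophil genes, 7 were in the table, 4 of them at 3 counts or fewer in every library, and their sums were 1.00 to 1.14 CPM in WT and 1.44 to 1.98 CPM in CKO, with 1 of 2 tested genes called higher. The B cell list gave 62.7 to 120.8 CPM in WT and 31.9 to 36.1 CPM in CKO, almost all of it Ebf1, a gene that marrow stromal cells also express and the 1 gene of the list that was tested, which was called lower. Erythroid genes summed to 0.502 to 0.625 CPM in WT and 0.180 to 0.722 CPM in CKO, and none of them passed the filter on low counts.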
